A study of Mus musculus with 4 samples.

Results

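The 3 mouse uncoupling protein genes Ucp1, Ucp2 and Ucp3 are described here in brown adipose tissue (BAT) with and without a deletion of Sox4. Each was taken as the row whose gene symbol equals its name, which gave 3 of the 55387 rows that every library lists. RNA sequencing was performed on the BAT of 4 male mice aged 15 weeks, 2 Sox4f/f controls and 2 Sox4-MKO littermates, with 1 library per mouse. In Sox4-MKO mice both copies of the floxed Sox4 gene are cut by a Cre recombinase under the control of Myf5, a gene active in the precursors of brown adipocytes and also of skeletal muscle, so the deletion is not limited to brown fat. Sox4f/f mice carry the floxed copies without the Cre, and the sample labels name that genotype WT. The comparison asks what the loss of Sox4 does to the transcripts of brown fat. The tissue was taken whole, although the labels give brown fat adipocytes as the cell type.

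Uncoupling proteins are carriers of the inner mitochondrial membrane, relatives of the carrier that exchanges ADP for ATP. UCP1 lets protons return to the mitochondrial matrix without passing through ATP synthase, so that the energy of fat oxidation is released as heat. It is the defining protein of brown adipocytes and is opened by free fatty acids and closed by purine nucleotides. Its gene is switched on by noradrenaline from sympathetic nerves, through beta-adrenergic receptors, cyclic AMP and protein kinase A, together with PPAR and thyroid hormone receptors. UCP2 is found in many tissues and is prominent in immune cells, where it is studied for its part in fuel use and the formation of reactive oxygen species. UCP3 is found in skeletal muscle and in brown fat, and its amount follows the supply of fatty acids. Neither of these is the carrier on which heat production in brown fat depends.

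On GRCm38, Ucp1 lies at chr8:83290352-83298452 on the plus strand. Ucp3 lies at chr7:100472990-100486432 and Ucp2 at chr7:100493337-100502020, both on the plus strand, and 6904 bases separate the end of Ucp3 from the start of Ucp2. The annotated transcripts used for length have 6 exons for Ucp1, 8 for Ucp2 and 7 for Ucp3. Their coding sequences hold 924, 930 and 927 bases, which makes proteins of 307, 309 and 308 amino acids. Aligned to each other, the coding sequences of the neighbours Ucp2 and Ucp3 were identical at 75.5% of the aligned bases, whereas Ucp1 shared 62.3% with Ucp2 and 63.4% with Ucp3. The longest stretch of bases shared by the annotated transcripts was 17 for Ucp1 with either of the others and 24 for Ucp2 with Ucp3.

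The 200 bases before the first annotated base of each gene are shown because the 3 genes encode close relatives and each has its own promoter. They are the plus strand of GRCm38.p6, and the first base is the earlier of the RefSeq and GENCODE starts. Capitals mark the letters of 5 short motifs, searched on both strands. A TATA box was spelled TATAAA, and the form TATATA was also taken as one. A GC box was spelled GGGCGG. A half-site of nuclear receptors was spelled AGGTCA. The core of a cyclic AMP response element was spelled TGACG. A core bound by Sox proteins was spelled ACAAAG, and ACAATG was also taken as one. No matches overlapped each other.
Ucp1, chr8:83290148-83290347: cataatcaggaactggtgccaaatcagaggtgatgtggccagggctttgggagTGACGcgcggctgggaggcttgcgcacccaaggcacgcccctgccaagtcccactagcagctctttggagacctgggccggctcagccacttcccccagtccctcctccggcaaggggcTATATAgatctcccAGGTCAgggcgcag
Ucp2, chr7:100493137-100493336: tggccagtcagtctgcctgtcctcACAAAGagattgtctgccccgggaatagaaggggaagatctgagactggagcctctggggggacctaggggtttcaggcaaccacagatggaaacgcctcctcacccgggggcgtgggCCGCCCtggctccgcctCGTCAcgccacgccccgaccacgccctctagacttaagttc
Ucp3, chr7:100472790-100472989: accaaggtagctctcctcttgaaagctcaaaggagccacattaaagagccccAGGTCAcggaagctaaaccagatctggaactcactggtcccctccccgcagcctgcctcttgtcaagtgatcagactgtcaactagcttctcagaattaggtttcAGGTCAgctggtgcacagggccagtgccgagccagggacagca

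Of these windows, that of Ucp1 was the one with TATA box letters, 28 to 23 bases before the start, followed by a nuclear receptor half-site from 14 to 9 bases and preceded by a cyclic AMP core from 147 to 143 bases. The Ucp2 window held a GC box from 58 to 53 bases, a cyclic AMP core from 41 to 37 bases and a Sox core from 176 to 171 bases before the start. The Ucp3 window held a nuclear receptor half-site in 2 places, from 148 to 143 and from 43 to 38 bases before the start. For comparison, 32851 windows of this length were read, each placed before the RefSeq start alone. Of these, 12.7% held TATA box letters, 31.0% a GC box, 11.4% a nuclear receptor half-site, 15.7% a cyclic AMP core and 20.7% a Sox core, so every one of these matches is common. CpG dinucleotides numbered 8 for Ucp1, 11 for Ucp2 and 3 for Ucp3, against a median of 5. Distal enhancers, where much of the control of Ucp1 is known to lie, were not examined.

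Sox4, the deleted gene, had 1.98 and 1.06 FPKM in Sox4f/f mice 1 and 2, and 0.98 and 3.06 FPKM in mice 1 and 2 labelled Sox4-MKO. FPKM counts fragments relative to the length of the transcript and the number of mapped fragments in the library. The genotypes overlapped, and the log2 difference of 0.20 had an SE of 0.43 (adjusted p = 0.843 by limma), so its mRNA did not separate the labels. The Sox4 values are low, and whole tissue also holds cells that the Cre does not reach. What share of the Sox4 mRNA came from such cells was not tested. Every direction given for the libraries labelled Sox4-MKO rests on those labels. Depth, estimated from the smallest values of genes with a single transcript, was 12100000 to 16300000 fragments per library. The transcript lengths used were 1636 bases for Ucp1, 3988 for Ucp2 and 2448 for Ucp3. Ucp2 has 11 annotated transcripts, and a shorter one would give it fewer fragments. At that depth and those lengths Ucp1 rested on about 15000 to 43000 fragments per library, Ucp2 on 3800 to 4600 and Ucp3 on 1500 to 2000, and counting error was at most 2.6% of a value. The spread between mice is therefore the larger error for these genes, apart from Ucp3 in the libraries labelled Sox4-MKO.

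Ucp1 mRNA was lower in both libraries labelled Sox4-MKO than in both Sox4f/f libraries, whereas Ucp2 and Ucp3 overlapped between the genotypes. Ucp1 stood at 1935 and 1814 FPKM in Sox4f/f mice 1 and 2 and at 733 and 1105 FPKM in mice 1 and 2 labelled Sox4-MKO. The controls lay close together, while the other pair differed from each other by more than the controls did, with mouse 1 the lowest. Averaged over 2 mice, Ucp1 was 1875 ± 85.6 FPKM (SD) in the controls and 919 ± 263 FPKM under the Sox4-MKO label, a level 51.0% lower. On the scale of log2(FPKM + 1) the fold change was -1.06 with an SE (standard error) of 0.23 and a 95% interval from -1.66 to -0.46. Its unadjusted p was 0.0069 and its adjusted p 0.213 (limma), so Ucp1 passed the threshold of 0.05 before adjustment and not after it.

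Of the 12877 genes tested, 8.28% were lower and 7.95% were higher at an unadjusted p under 0.05, and 0% passed after adjustment, where the smallest value was 0.191. Of the 3 uncoupling protein genes, 1 was lower by that rule and none was higher. No overlap between the genotypes is a looser mark, met by 29.6% of the tested genes in the lower direction and by 21.7% in the higher one. Ucp1 met it, and an exact two-sided permutation test of 2 mice against 2 gave p = 0.333 for it, the smallest this design allows. Without Sox4f/f mouse 1 the log2 fold change of Ucp1 was -1.01 with an unadjusted p of 0.060, and after quantile normalization it was -0.73 with 0.058 (limma for both). In whole tissue, fewer brown adipocytes, a larger share of other tissue such as muscle and less Ucp1 mRNA per brown adipocyte cannot be told apart.

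Ucp2 stood at 83.7 and 79.1 FPKM in Sox4f/f mice 1 and 2 and at 83.5 and 70.7 FPKM in mice 1 and 2 labelled Sox4-MKO. Mouse 1 of the latter lay between the controls. The means were 81.4 ± 3.26 FPKM and 77.1 ± 9.06 FPKM (SD, n = 2 each), and the log2 fold change was -0.082 with an SE of 0.13 and a 95% interval from -0.44 to 0.27 (adjusted p = 0.781, limma). That interval leaves out a fall as large as the one measured for Ucp1. Its sign was not stable, with 0.036 when mouse 2 labelled Sox4-MKO was left out.

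Ucp3 stood at 59.6 and 49.6 FPKM in Sox4f/f mice 1 and 2 and at 49.8 and 48.7 FPKM in mice 1 and 2 labelled Sox4-MKO. Sox4f/f mouse 1 was the high library, and the other 3 lay between 48.7 and 49.8 FPKM. The means were 54.6 ± 7.02 FPKM and 49.3 ± 0.74 FPKM (SD, n = 2 each), and the log2 fold change was -0.14 with an SE of 0.14 and a 95% interval from -0.50 to 0.22 (adjusted p = 0.636, limma). A difference of the size of the Ucp1 estimate lies outside this interval too, although smaller ones in either direction lie inside it.

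**Figure D1:**
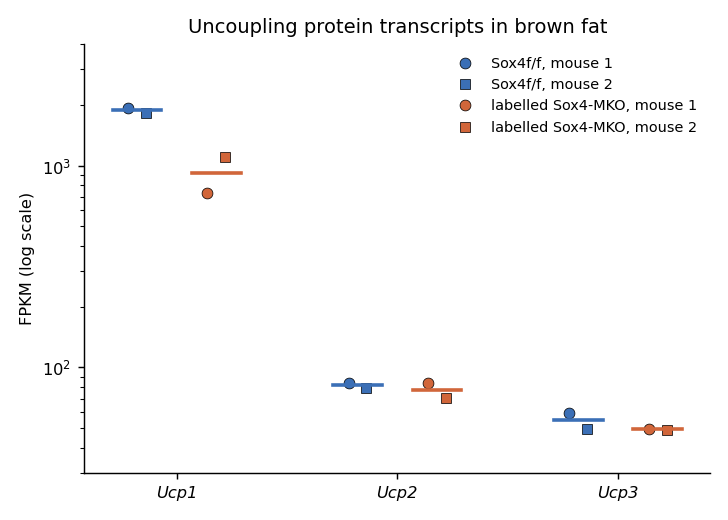
FPKM of Ucp1, Ucp2 and Ucp3 on a log axis, with each mouse as a point and the mean of each genotype as a bar (n = 2 mice). Ucp1 sits between 733 and 1105 in the libraries labelled Sox4-MKO, under both Sox4f/f values, while the points of Ucp2 and Ucp3 overlap.

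In every library the order of the levels, which FPKM gives per length of transcript, was Ucp1, then Ucp2, then Ucp3. Ucp1 ranked at 22 among all rows in both Sox4f/f libraries, and at 78 and 34 in mice 1 and 2 labelled Sox4-MKO. Ucp2 ranked between 846 and 930, and Ucp3 between 1225 and 1449, among 18593 to 19389 rows above 0. Ucp1 was therefore among the most abundant transcripts of the tissue in all 4 mice. The lowest Ucp2 value, 70.7 FPKM, was above the highest Ucp3 value, 59.6 FPKM. The level of Ucp2 depends on which of its 11 annotated transcripts was used for its length, so this order of neighbours is less certain than the place of Ucp1 above both.

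Ucp1 made up 93.1 and 93.4% of the summed FPKM of the 3 genes in Sox4f/f mice 1 and 2. It made up 84.6 and 90.2% in mice 1 and 2 labelled Sox4-MKO. The sum of Ucp2 and Ucp3 was 143 and 129 FPKM in the controls and 133 and 119 FPKM in the others, which overlap, so the lower share of Ucp1 came without a measured gain of its relatives. Of the summed FPKM of all genes, Ucp1 was 0.335 and 0.333% in the controls and 0.148 and 0.234% in mice 1 and 2 labelled Sox4-MKO.

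Ratios within a library do not depend on how libraries were scaled to each other. The FPKM ratio of Ucp1 to Ucp2 was 23.1 and 22.9 in Sox4f/f mice 1 and 2, and 8.78 and 15.6 in mice 1 and 2 labelled Sox4-MKO. The ratio of Ucp1 to Ucp3 was 32.5 and 36.6 in the controls and 14.7 and 22.7 in the others. Neither ratio overlapped between the genotypes, as was so for the ratio of Ucp1 to 92.4% of the 12876 other tested genes, which was lower without overlap. The log2 fold change of Ucp1 differed from that of Ucp2 by -0.97 and from that of Ucp3 by -0.92, each with p = 0.333 by an exact two-sided permutation test over the 4 mice, or 0.50 after adjustment over the 3 pairs. The ratio of Ucp2 to Ucp3 was 1.41 and 1.59 in the controls and 1.68 and 1.45 in the others, which overlap, and these 2 log2 fold changes differed by 0.058 (exact p = 0.667, also after adjustment).

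**Figure D2:**
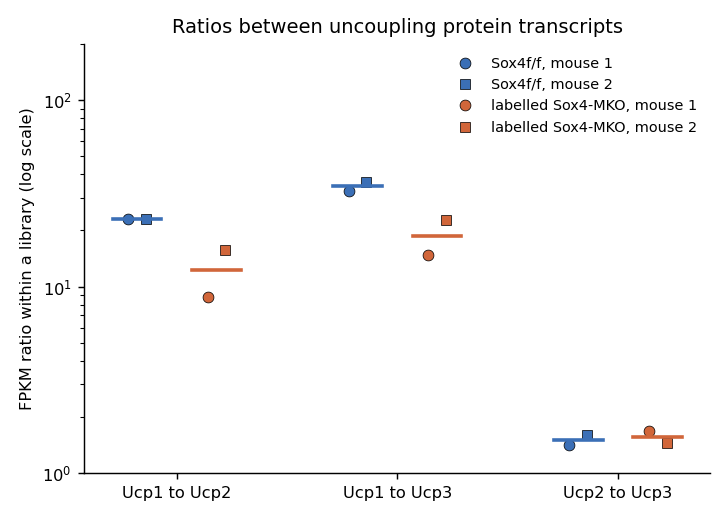
Ratios of FPKM within each library on a log axis, one point per mouse and a bar at the mean of each genotype (n = 2 mice). The ratios of Ucp1 to Ucp2 and to Ucp3 are lower in both libraries labelled Sox4-MKO, with 8.78 and 14.7 in mouse 1, and the ratio of Ucp2 to Ucp3 stays between 1.41 and 1.68.

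Set against 7 genes that all adipocytes express, Ucp1 was lower in the libraries labelled Sox4-MKO for 7 of 7, each without overlap, and the log2 change of the ratio ran from -1.26 to -0.73 with a median of -1.13. Its ratio to Fabp4, which encodes a fatty acid binding protein of fat cells, was 0.33 and 0.29 in Sox4f/f mice 1 and 2 and 0.14 and 0.15 in mice 1 and 2 labelled Sox4-MKO. Over the 12876 other tested genes the median was -1.01 and the share lower without overlap 92.4%, so the count of 7 is near that of genes in general. Set against 12 other genes typical of brown adipocytes, Ucp1 was lower for 11 but without overlap for only 4, and the median log2 change of the ratio was -0.21. Its ratio to Cidea, which encodes a lipid droplet protein of brown adipocytes, was 1.11 and 0.98 in the controls and 0.74 and 1.12 in the others, which overlap. For 8 of the 12 the ratio overlapped in the same way.

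**Figure D3:**
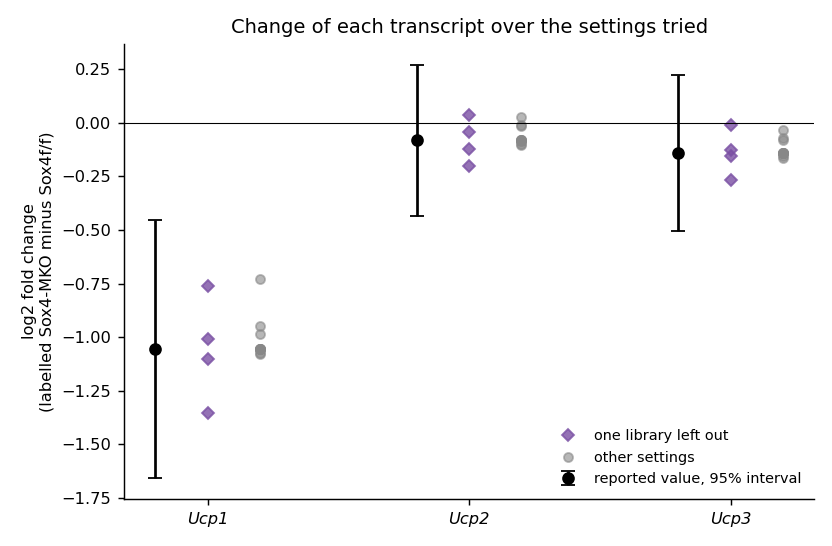
Log2 fold change of each gene between the libraries labelled Sox4-MKO and the Sox4f/f libraries, as the reported value with its 95% interval (black), with a single library left out (diamonds) and under the other settings on a log scale (grey). Ucp1 stays between -1.35 and -0.73, Ucp2 between -0.20 and 0.036 and Ucp3 between -0.27 and -0.011.

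Other carriers of the inner mitochondrial membrane were compared next, since the ADP/ATP carriers also conduct protons. Of 6 listed, 5 were tested and none had an unadjusted p under 0.05, with a median log2 fold change of 0.30 against -0.051 over all genes tested. With single libraries left out that median ran from 0.044, without mouse 1 labelled Sox4-MKO, to 0.65, without mouse 2 of that label. Slc25a5, the ADP/ATP carrier of most tissues, had 446 and 487 FPKM in Sox4f/f mice 1 and 2 and 418 and 399 FPKM in mice 1 and 2 labelled Sox4-MKO. Slc25a4, the form that muscle and heart use, had 224 and 276 FPKM in the controls against 717 and 281 FPKM, so a single mouse, the one with the highest skeletal muscle genes, set its higher mean. Slc25a14 and Slc25a30, at times called UCP5 and the kidney mitochondrial carrier, stayed at or under 5.57 FPKM in every library. In mouse 1 labelled Sox4-MKO the 717 FPKM of Slc25a4 came close to the 733 FPKM of Ucp1.

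The genes that act upstream of Ucp1 were grouped by role. Of 19 genes whose products are known or proposed to activate Ucp1 transcription, 9 were lower and 2 higher at an unadjusted p under 0.05, none after adjustment, and the median log2 fold change was -0.42. Of all genes tested, 8.28% were lower and 7.95% higher by that rule, and these shares stand beside the counts of the lists below. Ppara, a fatty acid receptor, had 115 and 130 FPKM in Sox4f/f mice 1 and 2 and 57.7 and 66.4 FPKM in mice 1 and 2 labelled Sox4-MKO, and its log2 fold change was -0.97 with an SE of 0.14 (adjusted p = 0.196 by limma). Ppargc1a, the coactivator PGC1α, had 48.2 and 22.4 FPKM in the controls against 13.2 and 14.2 FPKM, with a log2 fold change of -1.21 (adjusted p = 0.254 by limma). Both genes were lower without overlap, as were 29.6% of all genes tested, and Ppargc1a had a wide gap between the controls.

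Cebpb, a leucine zipper factor of early fat cell differentiation, had 83.2 and 123 FPKM in Sox4f/f mice 1 and 2 and 46.0 and 62.7 FPKM in mice 1 and 2 labelled Sox4-MKO (log2 fold change -0.90, adjusted p = 0.241 by limma). Dio2, which makes active thyroid hormone inside the cell, had 51.9 and 42.8 FPKM in the controls and 10.1 and 33.5 FPKM in the others. Like Ucp1, Dio2 was lowest in mouse 1 labelled Sox4-MKO, and its unadjusted p of 0.072 by limma missed the threshold. Pparg, the receptor on which all fat cells depend, had 197 and 155 FPKM against 127 and 153 FPKM, with an unadjusted p of 0.132. The 2 activators that were higher were Rxra, a partner of nuclear receptors, with 18.9 and 20.4 FPKM against 28.3 and 27.5 FPKM, and Lhx8, a homeobox factor, with 1.04 and 0.83 FPKM against 1.88 and 2.13 FPKM, both named after their values were seen.

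Of 8 genes known or proposed as repressors of Ucp1 transcription, 7 were tested, 1 was lower and none higher, and the median log2 fold change was 0.012. With 8.28% of all genes tested lower, a count of 1 in so short a list is unremarkable. The lower gene was Foxp1, with 8.06 and 9.97 FPKM in Sox4f/f mice 1 and 2 and 6.06 and 6.12 FPKM in mice 1 and 2 labelled Sox4-MKO. Nrip1, which encodes the corepressor RIP140, had 11.7 and 6.72 FPKM against 9.05 and 14.6 FPKM and overlapped.

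Of 14 genes of the beta-adrenergic route that turns Ucp1 on, 5 were lower and 1 higher, with a median log2 fold change of -0.24. This list joins genes that drive the route with genes that restrain it, such as those of enzymes that break down cyclic AMP. Its counts and median therefore give no direction for the route as a whole. The receptor gene Adrb3 had 132 and 174 FPKM in Sox4f/f mice 1 and 2 and 119 and 200 FPKM in mice 1 and 2 labelled Sox4-MKO, with a log2 fold change of 0.022. Genes of later steps were among the lower ones. Gnas, the locus of the stimulatory G protein, had 1910 and 1516 FPKM against 803 and 981 FPKM (log2 fold change -0.94, adjusted p = 0.205 by limma), and Adcy3, an adenylyl cyclase, had 55.7 and 37.0 FPKM against 16.2 and 19.6 FPKM (-1.30, adjusted p = 0.196 by limma). Prkar2b, a regulatory subunit that restrains protein kinase A, had 458 and 451 FPKM in the controls against 299 and 359 FPKM.

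Of 7 genes of the release of fatty acids, which activate UCP1, 3 were lower and none higher, with a median of -0.22, which was -0.065 without Sox4f/f mouse 2, -0.33 without mouse 1 labelled Sox4-MKO and -0.035 after quantile normalization. Pnpla2, the triglyceride lipase ATGL, had 1624 and 1589 FPKM in Sox4f/f mice 1 and 2 and 1100 and 1278 FPKM in mice 1 and 2 labelled Sox4-MKO. Plin5, a lipid droplet protein at the contact with mitochondria, had 102 and 84.4 FPKM against 58.0 and 56.1 FPKM (log2 fold change -0.69, adjusted p = 0.207 by limma). G0s2, an inhibitor of ATGL, had 547 and 682 FPKM against 608 and 450 FPKM and overlapped. Its log2 fold change of -0.22 is the median of the list, which joins genes that drive the release with genes that restrain it. That median therefore gives no direction for the release of fatty acids.

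**Figure D4:**
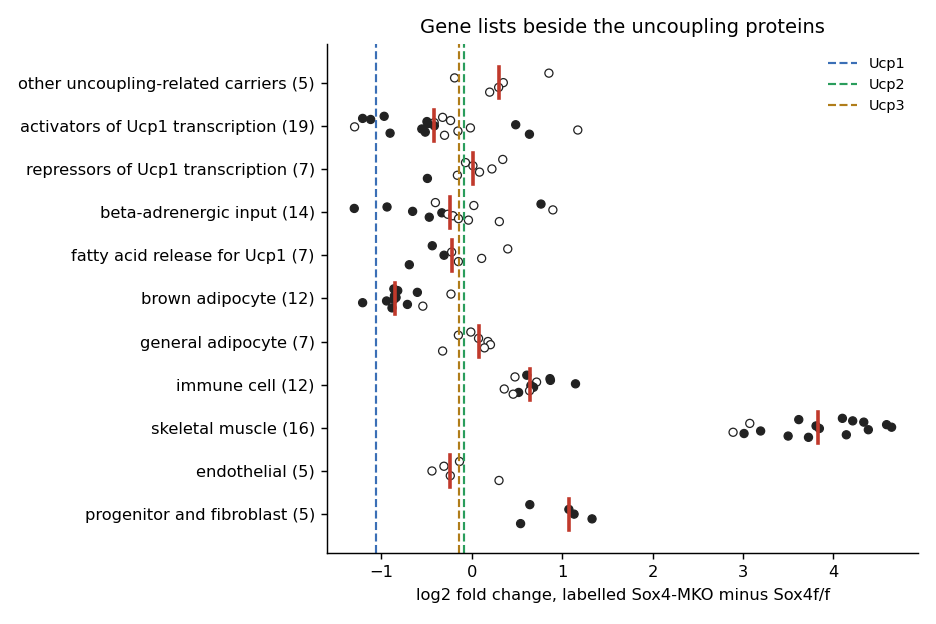
Log2 fold changes of the tested genes of each list (points, filled where the unadjusted limma p was under 0.05, with the number tested in parentheses) and their median (red bar), beside those of Ucp1, Ucp2 and Ucp3 (dashed lines). Ucp1 at -1.06 lies by the brown adipocyte genes, whose median is -0.85, and Ucp2 and Ucp3 lie near 0, at -0.082 and -0.14.

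The makeup of the tissue was read from marker genes. Their counts again stand beside the 8.28% lower and 7.95% higher of all genes tested. The 12 brown adipocyte genes were lower in 12 of 12, 10 of them at an unadjusted p under 0.05, with a median of -0.85, and their summed FPKM was 7975 and 7900 in Sox4f/f mice 1 and 2 and 4468 and 4674 in mice 1 and 2 labelled Sox4-MKO. Cox8b, a subunit of cytochrome oxidase, had 3317 and 3181 FPKM in the controls and 1670 and 2027 FPKM in the others. The 7 general adipocyte genes summed to 13629 and 13125 FPKM against 11728 and 17342 FPKM, with none called and a median of 0.074. The defining markers of fat cells were thus present in all 4 libraries, as were those of brown adipocytes.

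Skeletal muscle genes, which matter here because muscle expresses Ucp3, differed by far more than any uncoupling protein gene. All 16 had higher means under the Sox4-MKO label, 14 of them at an unadjusted p under 0.05, and their summed FPKM was 317 and 1061 in Sox4f/f mice 1 and 2 and 19010 and 3872 in mice 1 and 2 labelled Sox4-MKO. Acta1, skeletal muscle actin, had 59.9 and 226 FPKM in the controls and 4512 and 898 FPKM in the others, and no listed muscle gene was at 0 in any library. Ucp3 was 49.8 FPKM in the library with the most muscle RNA and 59.6 FPKM in the one with the least, so its level did not follow that of the muscle genes. Brown adipocyte genes were lower in the libraries with more muscle RNA, and what muscle added to Ucp3 was not tested. Both libraries labelled Sox4-MKO had more muscle RNA than both Sox4f/f libraries, so muscle content and genotype cannot be told apart. Ucp1 was lowest in the library with the most muscle RNA. When libraries were brought to the same sum after the muscle list, Ucp1 and the genes encoded in mitochondria had been set aside, a scaling chosen after the data were seen, the log2 fold change was -0.95 for Ucp1 (unadjusted p = 0.016 by limma), 0.025 for Ucp2 and -0.034 for Ucp3. Without mouse 1 labelled Sox4-MKO, which had the most muscle RNA, it was -0.76 for Ucp1 (unadjusted p = 0.0064 by limma).

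Immune cells are the other cells of fat tissue known for Ucp2. Of 14 immune cell genes, 12 were tested and all 12 had higher means under the Sox4-MKO label, 7 of them at an unadjusted p under 0.05, with a median log2 fold change of 0.65. Their summed FPKM was 179 and 233 in Sox4f/f mice 1 and 2 and 315 and 347 in mice 1 and 2 labelled Sox4-MKO. Mrc1, a macrophage receptor, had 4.98 and 7.84 FPKM in the controls and 16.0 and 14.2 FPKM in the others, while Ucp2 was lowest in the library with the highest immune sum. Lyz2, a lysozyme of macrophages, made up most of that sum, with 175 and 197 FPKM in mice 1 and 2 labelled Sox4-MKO. Mrc1 was higher in mouse 1 of that label, so which of these libraries held more immune RNA depends on the gene. Of the genes of progenitors and fibroblasts 5 of 5 were higher at an unadjusted p under 0.05, with sums of 172 and 168 FPKM against 322 and 313 FPKM, and of the endothelial genes none of 5 was called, with sums of 127 and 162 FPKM against 100.4 and 149 FPKM. What part these cells had in the levels of Ucp2 and Ucp3 was not tested.

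**Figure D5:**
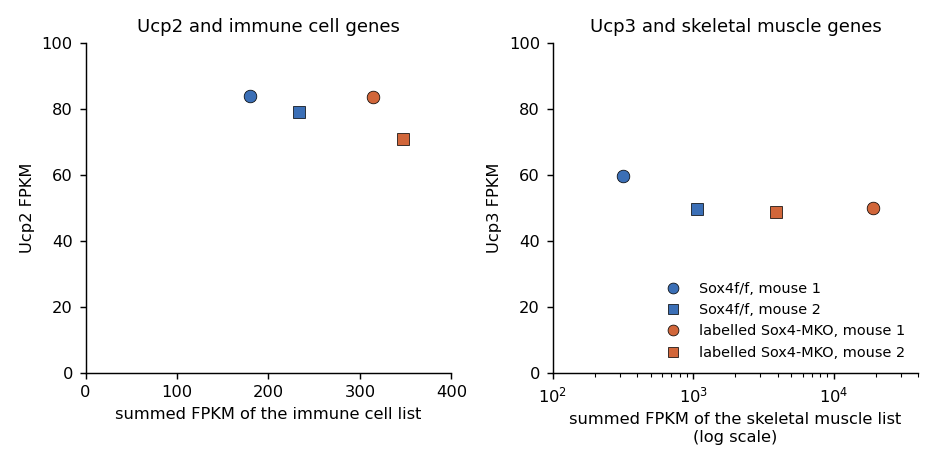
Ucp2 FPKM against the summed FPKM of the immune cell list (left) and Ucp3 FPKM against that of the skeletal muscle list on a log axis (right), one point per mouse. The muscle sum runs from 317 to 19010 FPKM while Ucp3 stays between 48.7 and 59.6 FPKM, and the immune sum runs from 179 to 347 FPKM while Ucp2 stays between 70.7 and 83.7 FPKM.

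The tested genes with the pattern most like that of each uncoupling protein gene were found by the root-mean-square distance between log2 profiles over the 4 libraries, each centred on its own mean. Nearest to Ucp1 were Trim2 (a ubiquitin ligase, distance 0.055), Atxn2 (an RNA-binding protein, 0.085), Pfkfb3 (a regulator of glycolysis, 0.092), Tysnd1 (a peroxisomal protease, 0.093) and Akap1 (an anchor of protein kinase A at the outer mitochondrial membrane, 0.095). Akap1 had 159 and 135 FPKM in Sox4f/f mice 1 and 2 and 64.5 and 85.2 FPKM in mice 1 and 2 labelled Sox4-MKO. Pfkfb3 had 309 and 327 FPKM in the controls and 113 and 193 FPKM in the others. Like Ucp1, these genes were lowest in mouse 1 labelled Sox4-MKO, which follows from choosing them by likeness of profile.

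Nearest to Ucp2 were Tomm6, B4galt1, Dap3, 2610301B20Rik and Parp1, and nearest to Ucp3 were Paics, H2aj, Zcchc14, Cox14 and Ccdc115. Tomm6, a part of the import pore of the outer mitochondrial membrane, had 104 and 99.4 FPKM in Sox4f/f mice 1 and 2 and 105 and 88.9 FPKM in mice 1 and 2 labelled Sox4-MKO. Cox14, an assembly factor of cytochrome oxidase, had 50.2 and 42.9 FPKM in the controls and 42.2 and 41.3 FPKM in the others. The distance between Ucp2 and Ucp3 was 0.10, against 0.57 between Ucp1 and Ucp2 and 0.51 between Ucp1 and Ucp3.

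Few genes next to the uncoupling protein genes were expressed. Within 100 kb of the start of Ucp1, Elmod2 had 10.8 and 10.3 FPKM in Sox4f/f mice 1 and 2 and 10.5 and 15.3 FPKM in mice 1 and 2 labelled Sox4-MKO (log2 fold change 0.25, adjusted p = 0.588 by limma), Mgat4d was listed at 0 in all 4 libraries and Clgn at 0 in 3 of them. The lower level of Ucp1 was thus not shared by Elmod2. Near Ucp2 and Ucp3, Coa4 had 2.85 and 2.31 FPKM in the controls and 4.54 and 2.45 FPKM in the others. Dnajb13, on the minus strand, overlaps the end of Ucp2 by 305 bases and stayed at or under 0.52 FPKM, and the antisense gene Gm10603 overlaps the first 1857 bases of Ucp3 and had between 1.01 and 2.14 FPKM. Whether fragments were counted by strand is not stated, so reads from these overlaps cannot be assigned, although both partners were low beside Ucp2 and Ucp3.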

How the data were processed

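The authors deposited 1 FPKM value per gene symbol and library, and no counts. Their processing notes list Cufflinks 2.1.1, Cuffdiff and the build mm10. The aligner and gene annotation are not given in the sources used here. The methods describe TRIzol extraction and a TruSeq library, whereas the labels name a spin-column extraction with DNase treatment and a strand-specific kit. Groups were taken from the labels, with 2 mice per genotype as the replicates.

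limma 3.58.1 in R 4.3.3 was fitted to log2(FPKM + 1) of the 12877 genes whose FPKM averaged above 1 in either genotype, with genotype as the only term and a trended prior, so that the spread between the mice of a genotype was moderated by that of all genes. These fold changes understate the change of low genes. p-values are two-sided, and adjustment was by Benjamini-Hochberg over all genes tested. A gene was called at an unadjusted p under 0.05. The code was tested on simulated data. The genes, lists and tests were chosen with earlier results of these data known, so the counts of list members are descriptions. Genes named are the 3 uncoupling protein genes, Sox4, the 3 most abundant and the 2 most changed of each list (a selection of these is printed, and the values of 1 listed gene are not reported here), the 5 nearest profiles and the protein-coding neighbours within 100 kb. Rxra, Lhx8 and the overlapping antisense gene Gm10603 were named outside this rule, after their values were seen. Promoter windows come from RefSeq (GRCm38.p6), in which 3 of 3 genes matched, and coordinates and transcripts from GENCODE M21 on GRCm38, the assembly behind mm10. The windows of the 3 genes end before the earlier start of these annotations, and the comparison windows before the RefSeq start. Fragment numbers are estimates that use GENCODE transcript lengths, and their errors cover counting only. Replicate numbers 1 and 2 occur in both genotypes. The deviations of same-numbered libraries had a correlation of -0.012 over 12877 genes, so the numbers were not treated as pairs. Alternatives were a replicate block, single libraries left out, other scalings, pseudocounts and filters, and limma without moderation or logarithm. Ratios were tested by exact permutation with scipy 1.17.1, and figures were drawn with matplotlib 3.10.9.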

Additional observations from a re-analysis of the deposited data

How the results depend on the processing

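Ucp1 was lower under all 17 alternatives and Ucp3 under all 17, and on the log2 scale Ucp2 kept its sign except for 0.036 without mouse 2 labelled Sox4-MKO and 0.025 after scaling to a common sum without mitochondrially encoded genes, Ucp1 and the muscle list, a scaling added after the data were seen. With single libraries left out, Ucp1 ran from -1.35 to -0.76, Ucp2 from -0.20 to 0.036, Ucp3 from -0.27 to -0.011, and Sox4 from -0.32 to 0.71, with -0.071 without Sox4f/f mouse 2. The limma p of Ucp1 before adjustment was over 0.05 without Sox4f/f mouse 1 (unadjusted p = 0.060), after quantile normalization (log2 fold change -0.73, unadjusted p = 0.058) and without moderation (-1.06, unadjusted p = 0.072), and it was under 0.05 in the other 14. Its adjusted p reached 0.692 without Sox4f/f mouse 1. Ucp2 and Ucp3 had no p under 0.05 in any. With a single library left out, an arm of 1 mouse is assumed to vary like the other pair. The difference between the log2 fold changes of Ucp2 and Ucp3 ran from -0.046 to 0.16, and those of Ucp1 from either kept their sign, with -1.39 to -0.56 against Ucp2 and -1.23 to -0.61 against Ucp3.

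The replicate block left the log2 fold changes at -1.06, -0.082 and -0.14 for Ucp1, Ucp2 and Ucp3, with unadjusted limma values of 0.015, 0.563 and 0.368, and called 938 genes lower and 970 higher, against 1066 and 1024 without it. It changed no call on the 3 genes. Leaving out single libraries gave 404 to 1012 lower and 445 to 1559 higher genes. No FPKM filter gave 1606 and 2281, with 1709 past adjustment, but there most residual variances were 0 and limma warned that its moderation is unreliable. Limma without moderation gave 935 and 553. The split of lower and higher genes moved to 746 and 1322 with a common sum without mitochondrially encoded genes and Ucp1, to 629 and 1425 when the muscle list was left out too, and to 302 and 791 with a common mean of the general adipocyte genes, where 119 genes passed adjustment and which was also added after the data were seen. The median of the repressor list ran from -0.14 to 0.11 with single libraries left out, that of the general adipocyte list from -0.16 to 0.31 and that of the endothelial list from -0.57 to 0.013, so none of these has a stable sign. That of the beta-adrenergic list ran from -0.30 to -0.20, and was -0.13 with the muscle list left out of the common sum. The cause of these moves was not tested. With 2 mice per genotype, a change of Ucp2 or Ucp3 within their 95% intervals could not be detected.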
